A study of Mus musculus with 2 samples.

Results

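The homeobox factors of heart development Nkx2-5, Nkx2-6, Isl1, Shox2, Hopx, Meis1, Meis2 and Pbx3 were followed in polyA-selected RNA from whole mouse hearts at embryonic day 12.5. They were chosen by gene symbol for their known roles in the heart fields, the sinus node and the TALE class, and all 8 of 8 symbols matched 1 row among the 55536 genes of the main table. The samples were 2 libraries of the same group, called replicate 2 and replicate 1 after their labels, each made from 10 ng of RNA from strain B6NCrl hearts, with male and female embryos pooled. The labels name no treatment or mutant allele, and the libraries share a donor identifier but are separate biosamples. The only contrast was therefore between the libraries, and its p-values concern these 2 samples.

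NKX2-5 is a DNA-binding regulator of heart muscle genes that acts together with GATA4 and TBX5, and NKX2-6 is its close relative, known in the mouse from the pharyngeal region and from early heart muscle. ISL1, a LIM homeodomain factor, marks progenitors of the second heart field and cells of the sinus node, and SHOX2, a paired-type factor, holds back Nkx2-5 in the sinus node, the pacemaker of the heart. HOPX is a small homeodomain protein that does not bind DNA and acts through partners such as SRF and histone deacetylases, while MEIS1, MEIS2 and PBX3 are TALE homeodomain factors that bind DNA together as MEIS and PBX partners and with Hox proteins.

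Replicate 2 held 32577548 estimated reads and replicate 1 held 35520161, and the added ERCC spike-in RNAs took 3.63% and 3.58% of them. All 10 heart muscle markers were detected in both libraries, with Actc1, cardiac actin, at 9333 and 9442 TPM (transcript abundance per length, scaled to a fixed total). Whole hearts also carried blood, and the 8 erythroid markers summed to 39767 TPM in replicate 2, against 44328 TPM in replicate 1. In bulk tissue, fewer cells of a type and less RNA per cell cannot be told apart.

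Coding stretches in which transcripts of the same factor differed are shown first, because the transcript results turn on them. They are given 5′ to 3′ on the coding strand, the minus strand of mm10 in each case, and were read from the GENCODE M21 transcripts. The Pbx3 stretch is a whole exon at chr2:34176749-34176861. The Isl1 stretch at chr13:116301710-116301778, the Meis2 stretch at chr2:115867359-115867379 and the Shox2 stretch at chr3:66973908-66973943 are extensions of an exon by the use of another splice site. No base in them is marked, so all letters are in lower case.
Pbx3 exon: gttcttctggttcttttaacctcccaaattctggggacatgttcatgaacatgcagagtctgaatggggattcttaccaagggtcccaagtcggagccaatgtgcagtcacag
Isl1 extension: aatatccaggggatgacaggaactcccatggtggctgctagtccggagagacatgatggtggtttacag
Meis2 extension: gttttcttcttgatccttcag
Shox2 extension: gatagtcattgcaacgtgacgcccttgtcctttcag

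Meis1 and Meis2 also share an alternative exon of 95 bases near the end of the coding region, of which 56 bases are coding. Those coding bases lie at chr11:18884027-18884082 in Meis1 and at chr2:115866849-115866904 in Meis2, both on the minus strand of mm10. They were the same at 53 of 56 positions (94.6%), and capitals mark the 3 positions that differ.
Meis1 exon: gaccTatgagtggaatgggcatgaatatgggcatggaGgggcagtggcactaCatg
Meis2 exon: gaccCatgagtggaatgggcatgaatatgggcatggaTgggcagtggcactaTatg

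The levels of the 8 factors spanned more than 2 orders of magnitude. Nkx2-5 was the highest, Meis1, Meis2 and Pbx3 followed, Hopx was lower, Shox2 and Isl1 were at a few TPM, and Nkx2-6 lay under the detection level of 1 TPM in both libraries. Thus 7 of 8 factors were detected. In the order of mean levels, the values of neighbours did not overlap between genes except for Shox2 and Isl1, whose ranges overlapped.

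**Figure D1:**
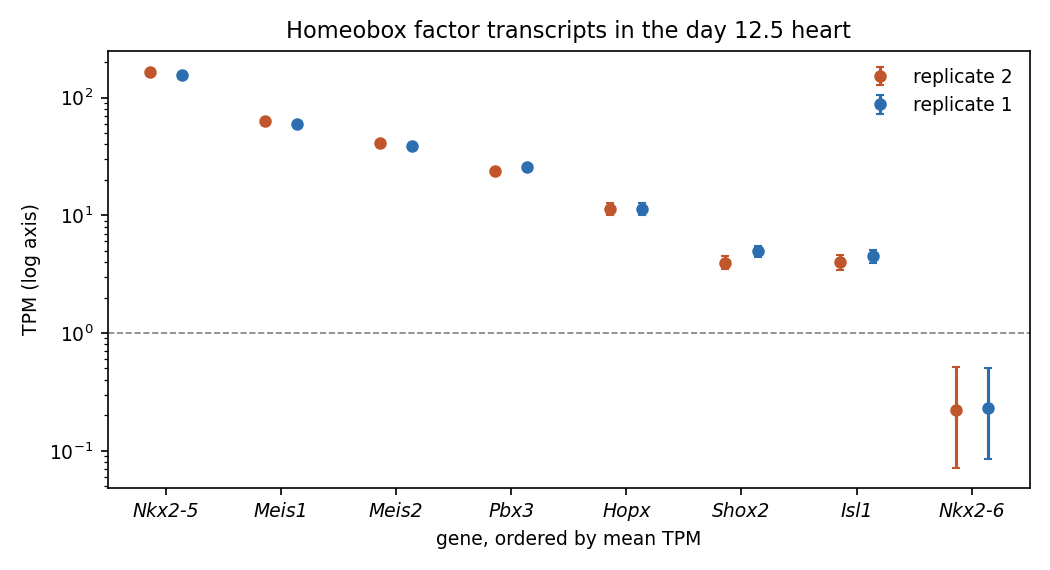
TPM of each factor on a log axis, with replicate 2 left of replicate 1. Bars are 95% exact Poisson intervals of the read count put on the TPM scale, which cover counting error only, and the dashed line is the detection level of 1 TPM. Nkx2-5 stands at 165 and 157 TPM, and Nkx2-6 lies under the line at 0.22 and 0.23 TPM.

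Among the NK factors, Nkx2-5 stood at 165 TPM in replicate 2, against 157 TPM in replicate 1, from 5246 and 5518 reads. Its mean of 161 ± 5.72 TPM (SD, n = 2) was above that of 93.3% of the 12468 detected protein-coding genes, whose median was 19.1 TPM. Nkx2-6 had 0.22 and 0.23 TPM from 5 and 6 reads, and the 95% exact Poisson intervals of those counts reached up to 0.513 TPM in replicate 2 and 0.501 TPM in replicate 1. The log2 ratio of Nkx2-5 over Nkx2-6, taken on log2(TPM + 0.5), was 7.84 in replicate 2 and 7.75 in replicate 1, and it depends on the constant added because Nkx2-6 is near 0. Nkx2-5 was the only detected gene of the 14 listed Nkx genes, and it and Nkx2-6 together carried 99.0% of the class's TPM in replicate 2 and 99.5% in replicate 1.

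Isl1, the LIM factor, reached 4.01 TPM in replicate 2, against 4.52 TPM in replicate 1, from 194 and 246 reads. Its mean of 4.27 ± 0.361 TPM (SD, n = 2) was above that of 15.5% of detected protein-coding genes. It was 1 of 2 detected genes among the 12 LIM homeobox genes, next to Lmx1a at 2.70 and 2.77 TPM, and it held 43.1% and 46.3% of the class's TPM. All 9 genes listed as LIM cofactors, from the LDB, SSBP and LMO families, were detected, and 7 of them were above Isl1 in both libraries. The highest were Ssbp3 at 81.9 and 78.7 TPM, Ldb1 at 65.6 and 66.5 TPM and Ssbp2 at 61.2 and 61.9 TPM.

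Shox2 reached 3.97 TPM in replicate 2, against 4.93 TPM in replicate 1, from 232 and 309 reads. Its mean was 4.45 ± 0.679 TPM (SD, n = 2), and the Isl1 to Shox2 log2 ratio was 0.01 in replicate 2 and -0.11 in replicate 1, so that neither gene was above the other in both libraries. Among the 11 paired-type genes Shox2 was below Prrx2, at 49.8 and 46.0 TPM, and Prrx1, at 7.31 and 5.88 TPM. Of the genes listed for the sinus node, 9 of 10 were detected, with the pacemaker channel gene Hcn4 at 1.93 and 1.80 TPM and the factor Tbx3 at 16.4 and 14.7 TPM. Shox2 and Isl1 are also known from limb buds and neurons. The 6 other limb bud markers summed to 8.37 and 6.48 TPM, of which Prrx1, the only detected gene of the 6, gave 7.31 and 5.88 TPM, and Hoxa13 was at 0 in replicate 1. The 10 neuron and neural crest markers, of which 4 were detected, summed to 16.5 and 16.6 TPM. Their part in the Shox2 and Isl1 levels was not tested.

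Hopx reached 11.4 TPM in replicate 2, against 11.3 TPM in replicate 1, from 277 and 307 estimated reads, a mean of 11.3 ± 0.0636 TPM (SD, n = 2). That spread is smaller than counting error alone would give, since the Poisson coefficient of variation of its counts was 6.01% and 5.70%. All 8 listed HOPX partners were detected. Their highest members were Gata4 at 157 and 149 TPM, Hdac2 at 141 and 151 TPM and Hdac1 at 114 and 110 TPM, each above Hopx.

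The TALE factors were Meis1, at 63.4 TPM in replicate 2, against 59.4 TPM in replicate 1, Meis2, at 41.2 and 39.1 TPM, and Pbx3, at 23.7 and 25.9 TPM. The 3 genes carried 48.3% of the TPM of the 12 listed TALE genes in each library, and 11 of the 12 were detected. On log2(TPM + 0.5), Meis2 was below Meis1 by a ratio of -0.62 in replicate 2 and -0.60 in replicate 1. Meis2 was above Pbx3 by 0.79 and 0.58, and the mean of that ratio went to 1.18 when reads were not divided by transcript length. The 3 MEIS genes summed to 121 and 113 TPM. Among the 15 anterior Hox genes, whose proteins work with TALE factors, 2 were detected, Hoxb2 at 3.15 and 3.10 TPM and Hoxd3 at 1.93 and 2.43 TPM.

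**Figure D2:**
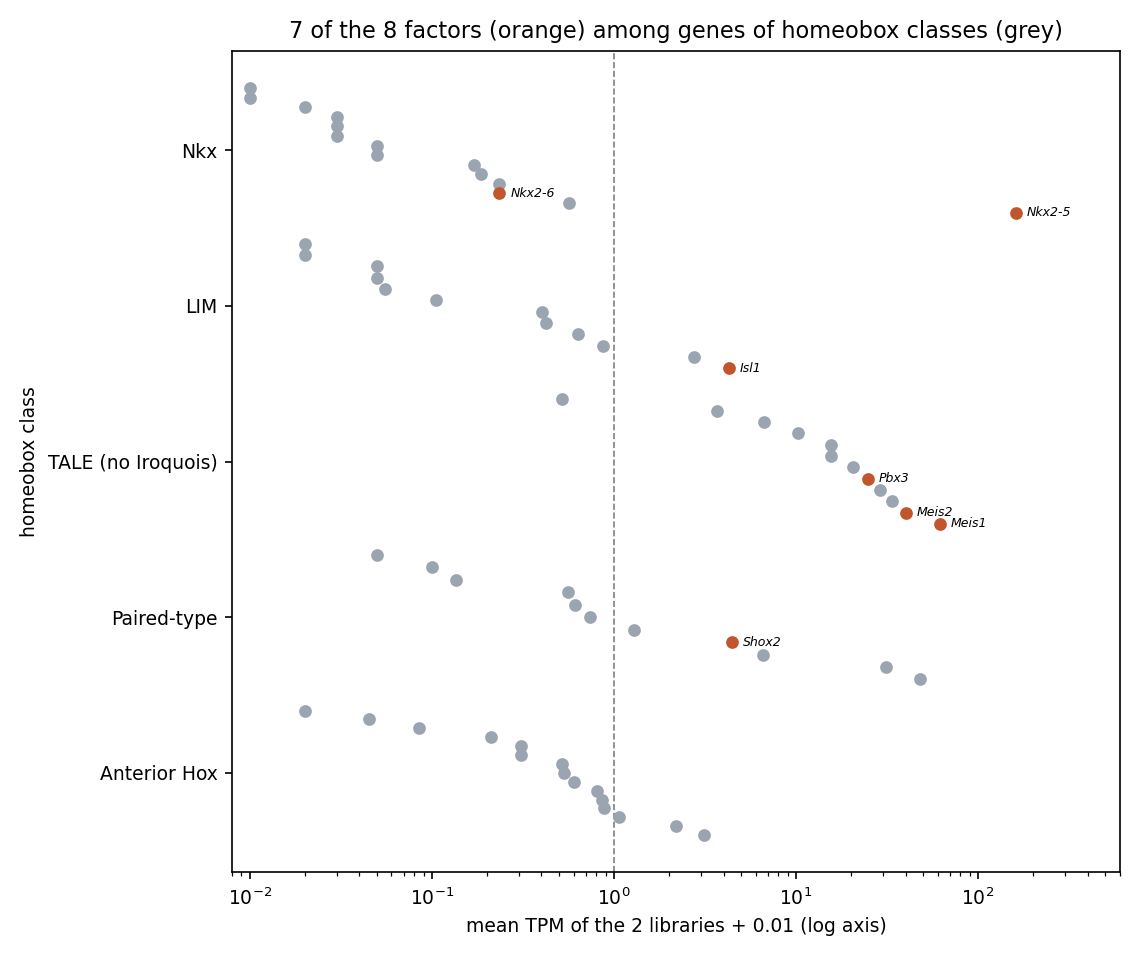
Mean TPM of the 2 libraries plus 0.01 on a log axis for the genes of 5 homeobox classes, with the factors in orange and other genes in grey. Within a class, genes run down the page by rising level, and Hopx, in none of the 5 classes, is not drawn. Names are given for the factors, and the dashed line marks 1 TPM. Nkx2-5 stands apart at 161 TPM in a class of otherwise undetected genes, while 11 of 12 TALE genes lie above the line.

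Across 177 other listed genes, likeness in level was measured as the root mean square difference of log2(TPM + 1) over the 2 libraries, a description with no test. Gata4 was nearest to Nkx2-5, with a difference of 0.07, at 157 and 149 TPM. Hdac3 was nearest to Meis1 at 0.04, the endothelial cadherin gene Cdh5 to Meis2 at 0.05, Sema3c to Pbx3 at 0.08 and Pbx2 to Hopx at 0.14. The calcium channel subunit gene Cacna2d2, at 4.63 and 4.85 TPM, was nearest to both Shox2 and Isl1, each at a difference of 0.13.

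None of the 7 factors with enough reads for a test was called different between the libraries. A call needed a summed count of at least 20, an adjusted p under 0.05 by Benjamini-Hochberg over all tested genes in an exact conditional binomial test (two-sided, 2 times the smaller tail), and an absolute log2 ratio of at least 1. By that rule 1.45% of the 17970 tested genes were called, 260 in all. Without the fold threshold 9.71% of tested genes passed, and still none of the 7 factors, of which 3 had an unadjusted p under 0.05 in the exact test, as did 22.0% of all tested genes. With 7 genes, none called is near what that background gives.

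The ratios of replicate 2 over replicate 1 were small for the abundant factors. On TMM-scaled counts the log2 ratio was 0.04 for Nkx2-5 (95% exact interval -0.01 to 0.10), 0.06 for Meis1 and 0.08 for Meis2, and -0.13 for Pbx3 (interval -0.24 to -0.02). It was -0.03 for Hopx, -0.30 for Shox2 (interval -0.55 to -0.05) and -0.23 for Isl1 (interval -0.51 to 0.05). The adjusted p of the exact binomial test was 0.193 for Meis2, 0.128 for Pbx3, 0.123 for Shox2 and 0.352 for Isl1. The median over the 7 factors was -0.03, beside -0.01 over all tested genes. Nkx2-6, with 5 and 6 reads, was too low to be tested. Its interval ran from -2.20 to 1.83, which does not exclude a ratio past the fold threshold in either direction.

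**Figure D3:**
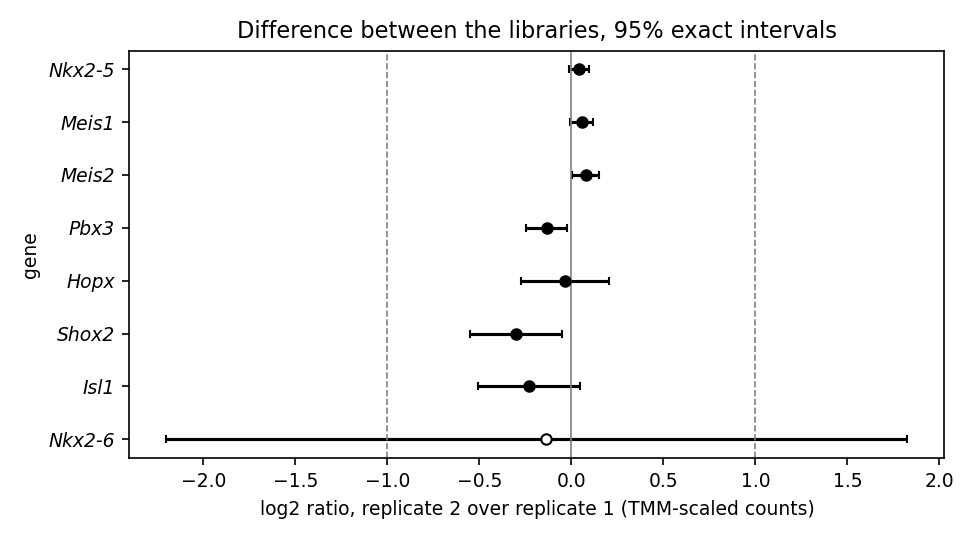
Log2 ratio of replicate 2 over replicate 1 on TMM-scaled counts, with 95% exact binomial intervals that cover counting error only. The open point, Nkx2-6, was too low to be tested, and dashed lines mark ratios of -1 and 1. The intervals of the 7 tested factors lie between -0.55 and 0.20, inside the dashed lines.

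Other genes of these classes did differ. Nkx2-1, an NK factor of lung, thyroid and forebrain, had 49 reads in replicate 2 and 5 in replicate 1 (1.02 and 0.09 TPM, log2 ratio 3.28, adjusted p = 8.34e-09 by the exact binomial test). Hoxb5 had 61 and 5 reads (1.48 and 0.11 TPM, log2 ratio 3.59, adjusted p = 4.92e-12 by the same exact test). Of the 9 foregut and lung markers 7 were tested, and Nkx2-1 was the only one called. The sum of the 9 was 9.36 TPM in replicate 2, against 6.03 TPM in replicate 1. Sftpc, with 14 and 0 reads, was too low to be tested. For Foxa2, with 12 and 14 reads, the log2 ratio was -0.10 (exact interval -1.35 to 1.11), so its direction was not settled. Cdh1 was lower in replicate 2, with 65 and 117 reads. For Cdh1 the log2 ratio was -0.73, inside the fold threshold (adjusted p = 0.0165 by the exact binomial test). The 10 hepatocyte markers were all called lower in replicate 2, where they summed to 69.5 TPM, between 0.25 and 28.0 TPM each, against 256 TPM in replicate 1, between 1.75 and 97.5 TPM each. The part of other tissues in the levels of the 8 factors was not tested.

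The factors differed in how many transcripts they used. Shares are of the gene's summed transcript TPM, and reads shared by several transcripts were assigned by estimate. Nkx2-5 used a single form, Nkx2-5-201 of 318 residues, at 99.1% in replicate 2 and 99.4% in replicate 1. Nkx2-6 has 1 annotated transcript. Meis2, with 19 annotated transcripts, was the most divided: Meis2-203 was its highest, at 23.4% and 23.3%, and 5 transcripts had a mean share of at least 10%. With posterior mean TPM, Meis2-203 was at 15.4% in each library, Meis2-206 was highest by mean share, at 15.1% and 17.4%, and 4 transcripts reached 10%.

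**Figure D4:**
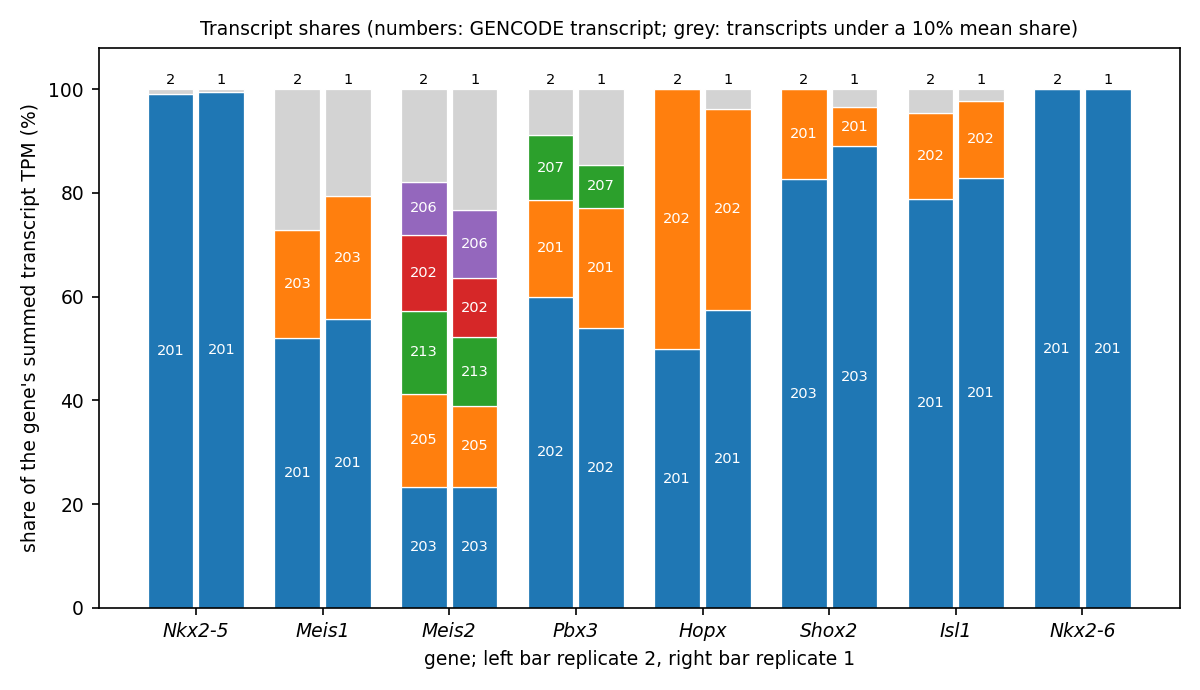
Share of each gene's summed transcript TPM, in percent, with replicate 2 as the left bar and replicate 1 as the right bar. Coloured blocks are transcripts with a mean share of at least 10%, labelled by their GENCODE number, and grey is the rest. Nkx2-5 has 1 block of more than 99% and Meis2 has 5 blocks.

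Hopx was read from a pair of start sites. Hopx-201 starts 19844 bases upstream of Hopx-202 and both encode the same length of 73 residues. Hopx-201 held 49.8% of Hopx TPM in replicate 2 and 57.5% in replicate 1, and Hopx-202 held 50.2% and 38.8%, so the transcript in front was not the same in both libraries. Behind these shares lay 147 and 186 estimated reads for Hopx-201 and 129 and 110 for Hopx-202, with a posterior standard deviation of the assignment of at most 14.02 reads. Because the starts are apart, the 250 bases before each RefSeq start (GRCm38.p6) are printed, on the minus strand at chr5:77115124-77115373 for the upstream start and chr5:77095268-77095517 for the downstream start. The last 10 bases of the downstream window lie inside Hopx-202 as GENCODE annotates it. Capitals mark matches on either strand to CCAAT, which reads ATTGG here, and to AAGTG, the core of an NKX2-5 site.
Hopx upstream start: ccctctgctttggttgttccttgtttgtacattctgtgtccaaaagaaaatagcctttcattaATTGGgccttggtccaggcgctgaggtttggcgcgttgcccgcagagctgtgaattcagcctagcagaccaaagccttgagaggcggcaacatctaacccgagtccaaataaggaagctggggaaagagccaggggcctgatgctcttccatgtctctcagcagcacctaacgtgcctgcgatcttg
Hopx downstream start: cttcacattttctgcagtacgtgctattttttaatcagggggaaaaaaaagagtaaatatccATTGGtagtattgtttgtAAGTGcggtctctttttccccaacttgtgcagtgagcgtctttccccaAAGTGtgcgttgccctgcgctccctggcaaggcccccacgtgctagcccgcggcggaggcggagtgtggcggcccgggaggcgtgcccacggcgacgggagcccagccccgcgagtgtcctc

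The upstream window held 1 CCAAT and no AAGTG, and the downstream window held 1 CCAAT and 2 AAGTG. Of 32851 RefSeq windows of that length, 33.8% held CCAAT and 40.7% held AAGTG, so these matches are frequent. The other motifs searched on both strands were in neither Hopx window. They were the TATA box letters TATAAA, held by 12.4% of all windows, the GATA factor letters AGATAA, held by 9.99%, and the MEIS letters TGACAG, held by 15.9%. Of the 8 factors, 6 had an entry in the RefSeq table, and Pbx3 and Nkx2-6 had none.

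Pbx3 was mostly in its short form. Pbx3-202, which lacks the printed exon of 113 bases and encodes 351 residues, held 60.0% of Pbx3 TPM in replicate 2 and 54.0% in replicate 1, and Pbx3-201, which has the exon and encodes 434 residues, held 18.6% and 23.1%. Over all transcripts that span the choice, the exon was in 34.1% and 36.9% of TPM. Pbx3-207, annotated as a target of nonsense-mediated decay, held 12.4% and 8.42%. It has the exon too, and gave 2.94 of the 7.35 TPM with the exon in replicate 2. In replicate 1 it gave 2.18 of 8.16 TPM. A 242-base exon of Pbx3 was in 86.5% and 90.3% of the TPM that spans it.

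In Meis1 and Meis2 the paired 95-base exon was used to different extents. It was in 89.96% and 96.09% of the Meis1 TPM that spans the choice, and in 63.8% and 67.9% of the Meis2 TPM. The values of the genes did not overlap, and with 2 libraries no test was made. Of the 46.24 and 47.17 TPM of Meis1 with the exon, Meis1-203, with no annotated coding region, gave 13.2 and 14.05 TPM. The Meis1 side without the exon was loosely assigned. Meis1-202 had 96.6 and 63.7 estimated reads, with a posterior standard deviation of 79.0 and 65.9. Meis1-209 had 96.8 and 9.4, with 69.0 and 64.0. Meis1-201, which has the exon and encodes 390 residues, held 52.1% and 55.7% of Meis1, while Meis2-203, which lacks it, encodes 470 residues. The 21-base extension of Meis2 was in 34.1% and 35.6% of TPM. Its mean went from 34.9% to 37.3% with posterior mean TPM, a move beyond the spread of the libraries. Of the other named Meis2 forms, Meis2-205 held 17.9% and 15.7%, Meis2-202 held 14.7% and 11.5%, and Meis2-206 held 10.2% and 13.0%. The order of Meis2-205 and Meis2-206 was not settled. Meis2-205 had 596 and 547 estimated reads, with a posterior standard deviation of 216 and 170 reads. Meis2-206 had 339 and 452, with 223 and 175. With posterior mean TPM, Meis2-205 was at 10.5% and 9.04%, below Meis2-206 at 15.1% and 17.4%.

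Part of the MEIS signal was assigned to transcripts with no annotated coding region. Meis1-203, a processed transcript that starts inside the gene, held 20.8% of Meis1 TPM in replicate 2 and 23.6% in replicate 1, and transcripts with a retained intron held 14.7% and 13.5%. Gm16141, a gene on the opposite strand, spans a 142-base Meis1 exon at chr11:19014250-19014391. The retained-intron transcripts Meis1-204 and Meis1-205 lack that exon, while Meis1-201 and the other coding transcripts hold it. Whether strand was counted is not given, and whether reads of Gm16141 entered the Meis1 shares was not tested. Coding transcripts held 58.4% and 59.8% of Meis1. In Meis2, retained-intron transcripts held 19.9% and 19.7%, with Meis2-213 at 15.9% and 13.1%, and coding transcripts held 72.7% and 74.3%.

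Isl1 kept its 69-base extension in 82.5% of TPM in replicate 2 and 84.8% in replicate 1. Isl1-201, with it, encodes 349 residues and held 78.8% and 82.9%, and Isl1-202, without it, encodes 326 residues and held 16.7% and 14.9%, from 16.5 and 18.3 estimated reads. Shox2 had its 36-base extension in 17.4% and 7.51% of TPM. Shox2-201, which has it and encodes 331 residues, rested on 45.8 and 27.1 estimated reads, and Shox2-203, whose annotated coding region is incomplete at its start, held 82.6% and 89.0%.

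**Figure D5:**
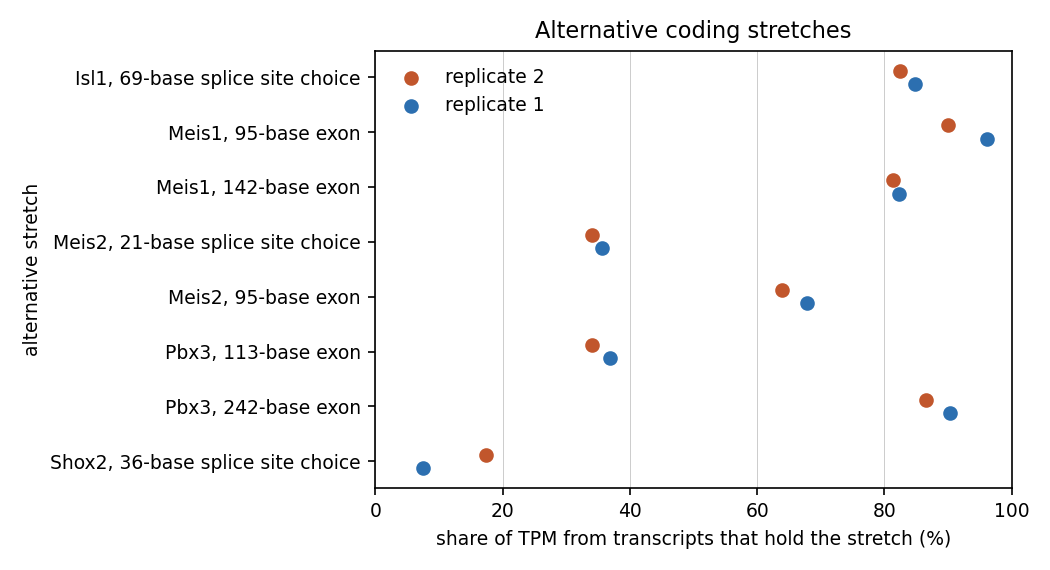
Share of TPM, in percent, from transcripts that hold each alternative coding stretch, among transcripts that span the choice, with replicate 2 in orange and replicate 1 in blue. The Meis1 95-base exon lies at 89.96% and 96.09%, the Meis2 95-base exon at 63.8% and 67.9%, and the Pbx3 113-base exon at 34.1% and 36.9%.

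Several factors overlap other genes, and the sources do not say whether counting used strand. Rsrc1, on the opposite strand, overlaps 382 bases at the start of Shox2 and stood at 22.9 TPM in replicate 2, against 20.6 TPM in replicate 1, above Shox2. The overlap lies from chr3:66981390 to 66981771, and of the Shox2 transcripts only Shox2-201 reaches into it. Shox2-203, the highest Shox2 transcript, starts outside it, at 66981318. Within Meis1 lie Gm16141, on the opposite strand, at 10.3 and 8.21 TPM, Gm16140, on the opposite strand, at 1.30 and 0.29 TPM, and the same-strand models 2610001A08Rik at 3.68 and 1.85 TPM, Gm37818 at 1.12 and 0.72 TPM and 2900018N21Rik at 0.18 and 0.30 TPM. Hopxos, opposite to Hopx, had 0.39 and 0.25 TPM, C79798, opposite to Pbx3, had 0.11 and 0.14 TPM, and 1700092C10Rik, opposite to Nkx2-6, was at 0 in both. The posterior standard deviation of the gene count was 0 reads in both libraries for Shox2, and 8.42 and 8.30 reads for Meis1.

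Genes listed as working with these factors were detected to different extents. All 10 cardiac partner factors were detected, led by Gata4, Mef2c at 99.1 and 92.0 TPM and Tbx20 at 81.4 and 86.6 TPM, and all 12 listed NKX2-5 chamber targets were detected, led by Actc1, Myl2 at 5954 and 5606 TPM and Nppa at 4632 and 4453 TPM. Of the 12 genes listed for the second heart field, 7 were detected, with Bmp4 at 32.1 and 27.9 TPM, Sema3c at 25.8 and 25.7 TPM and Wnt11 at 24.2 and 20.6 TPM, while Fgf8 was at 0 reads in both libraries. Of the 8 left-right genes 3 were detected, among them Acvr2b at 18.1 and 22.6 TPM and Gdf1 at 1.62 and 1.61 TPM. The library test covered all 12 chamber targets and all 10 partner factors. It covered 10 of the 12 second heart field genes and 4 of the 8 left-right genes. None of those tested was called between the libraries, against 1.45% of all tested genes. Without the fold threshold, 9.71% of all tested genes passed. So did 7 of the 12 chamber targets, with log2 ratios from -0.11 for Myh6 to 0.11 for Cited1, and 2 of the 10 partner factors. Those 7 targets had from 6169 reads, for Smyd1 in replicate 2, to 320004 reads, for Actc1 in replicate 1. At high counts a test that covers counting error only passes small ratios, so this share is not comparable with that of all genes. None of the 10 tested second heart field genes passed. Of the 4 tested left-right genes 1 passed, Acvr2b (log2 ratio -0.22).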

How the data were processed

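PolyA RNA-seq of 2 mouse heart libraries was analysed from the gene and transcript tables. The authors deposited expected counts (estimated reads, not always whole), TPM, posterior mean TPM and the posterior standard deviation of each count, per the file headers, on GENCODE M21 (used here) and M4, genome mm10. Which aligner and counter were used, and whether strand was counted, is not given in the sources used here. Symbols and coordinates came from the GENCODE M21 annotation. Expected counts were rounded for tests and scaled by TMM (edgeR 4.0.16), and ratios had 0.5 added to the scaled counts. Libraries were compared by an exact conditional binomial test (SciPy 1.17.1), checked on simulated counts, with Benjamini-Hochberg adjustment. Detection meant at least 1 TPM in both libraries. Intervals are 95% and cover counting error only, since reads without molecular identifiers are not independent molecules. Nothing says that the libraries came from separate animals, so the spread may be technical. An alternative splice site was one within 100 bases of another. The genes named were the 8 factors, their transcripts with a mean share of at least 10%, the 3 highest genes of each list, called list genes, pairs, the nearest genes by level and overlapping genes. Hcn4, Fgf8, Hoxa13, Myh6, Cited1, Sftpc, Foxa2, Meis1 and Meis2 exon values and Hoxb5 were singled out after their values were seen. Some genes that meet this rule are left out of the text. The factors and lists were chosen with earlier results of these data known. DESeq2 1.42.0 size factors, total counts, spike-in counts, other filters, pseudocounts and M4 were tried as alternatives.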

Additional observations from a re-analysis of the deposited data

How the results depend on the processing

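The count of 7 detected factors was 7 under annotation M4, posterior mean TPM, a level of 0.5 TPM and each library alone, and 5 at a level of 5 TPM. No factor was called under any of the 6 other settings of the library test, in which 227 to 311 genes were called, or 1744 without the fold threshold. The library test needs both libraries and was not run with either left out. The order of levels differed only in Shox2 and Isl1, which changed places under posterior mean TPM and without replicate 1. Without length division the log2 ratio of Meis2 over Meis1 was -0.45, that of Meis2 over Pbx3 1.18, of Isl1 over Shox2 -0.27 and of Nkx2-5 over Nkx2-6 7.95. With posterior mean TPM, Meis2 over Meis1 was -0.48 and Nkx2-5 over Nkx2-6 7.69, and that of Nkx2-5 over Nkx2-6 was 8.95 with a pseudocount of 0.1 and 7.05 with 1. With each library alone, Isl1 over Shox2 ran from -0.11 to 0.01. The dominant transcript was the same for all 8 factors under M4, for 7 under posterior mean TPM and without length division (not Meis2), and for 7 without replicate 1 (not Hopx). The alternative of posterior mean TPM for splice choices was chosen after seeing the data, and 8 of 9 choices moved by no more than the spread of the libraries. For the shares of the dominant transcripts this held for 15 of 24 values under the other settings. With posterior mean TPM the mean share was 66.4% for Isl1, 74.3% for Shox2 and 15.4% for Meis2, against 80.9%, 85.8% and 23.3%. Read depth limits Nkx2-6 and the minor Isl1 and Shox2 transcripts. No paired analysis was possible because there was 1 group of samples.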
